A study of Homo sapiens with 2 samples.

Results

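The genes described here are the chemokines, small secreted proteins that steer migrating cells, and their receptors. They were measured in MKN1, an established human gastric cancer line, on 2 arrays of total RNA. One array came from cells made to overexpress RHOA Y42C, a mutant of a small GTPase that controls the actin cytoskeleton, and the other from cells made to overexpress RHOA wild-type. Both lines received a pBABE retroviral plasmid and puromycin selection and were grown in RPMI with serum, and neither a parental nor an empty-vector array was analysed here, so a difference cannot be assigned to one line. The labels do not say whether each line was 1 clone or a pool, and in bulk RNA fewer expressing cells and less RNA per cell cannot be told apart. With 1 array per line no difference below carries an error between samples or a test, and each compares these 2 lines.

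Members were chosen by gene symbol: every probe set with 1 symbol that begins with CXCL, CCL, XCL or CXCR and a digit, or reads CX3CL1, CX3CR1, XCR1, CCR or ACKR with a number. This gave 59 probe sets for 59 genes, 38 ligands and 21 receptors, of 17709 probe sets with 1 symbol and 21448 in all. Of the ligand and receptor genes looked for, CCL4, CCL13, CCL14, CCL15 and CCR3 are among those not analysed here. Signal is given as deposited and was taken as log2, which every fold below rests on, and each difference is the Y42C value minus the wild-type value. As no detection call was given, olfactory receptor genes served as a measure of background. A gene was called above the minimum on an array when it reached the 95th percentile of 349 olfactory receptor genes there, 5.14 on the Y42C array and 5.17 on the wild-type array.

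Chemokines are grouped by the spacing of their N-terminal cysteines into CXC, CC, XC and CX3C ligands, and act through G protein-coupled receptors that signal through inhibitory G proteins. CXC ligands with the amino acids ELR ahead of the cysteines attract neutrophils through CXCR1 and CXCR2. CXCL9, CXCL10 and CXCL11 are induced by interferon-gamma and attract T cells through CXCR3. Atypical receptors (ACKR) bind chemokines without G protein signalling and mostly remove them. In epithelia, NF-kB is a main driver of the ELR ligands, CCL5 and CCL20.

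Upstream sequence is shown for 4 CXC ligands because they stand for the genes whose inducers, NF-kB and interferon-gamma, are described below. Each line gives the 250 bases before the gene start, 5′ to 3′ on the gene's strand, from RefSeq on GRCh38.p14. Capitals mark matches on either strand to the kB letters GGNNTTNCC, or to the letters GAAANNGAA of an interferon-stimulated response element (ISRE); no 2 marked matches overlap in these windows.
CXCL5, chr4:73998678-73998927, minus strand: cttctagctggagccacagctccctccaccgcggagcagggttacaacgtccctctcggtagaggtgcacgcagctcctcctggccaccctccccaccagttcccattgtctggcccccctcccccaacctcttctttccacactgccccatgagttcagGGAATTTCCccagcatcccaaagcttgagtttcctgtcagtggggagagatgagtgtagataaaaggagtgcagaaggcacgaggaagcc
CXCL8, chr4:73740319-73740568, plus strand: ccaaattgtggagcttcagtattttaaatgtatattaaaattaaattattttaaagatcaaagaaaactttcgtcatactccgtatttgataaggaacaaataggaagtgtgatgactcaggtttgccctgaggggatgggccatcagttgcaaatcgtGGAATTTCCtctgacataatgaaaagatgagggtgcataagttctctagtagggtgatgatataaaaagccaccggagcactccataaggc
CXCL9, chr4:76007510-76007759, minus strand: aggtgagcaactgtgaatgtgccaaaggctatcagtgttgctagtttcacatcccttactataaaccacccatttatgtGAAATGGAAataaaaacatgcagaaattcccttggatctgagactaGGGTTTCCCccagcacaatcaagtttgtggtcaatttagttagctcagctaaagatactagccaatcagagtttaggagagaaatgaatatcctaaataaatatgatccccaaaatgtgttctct
CXCL10, chr4:76023498-76023747, minus strand: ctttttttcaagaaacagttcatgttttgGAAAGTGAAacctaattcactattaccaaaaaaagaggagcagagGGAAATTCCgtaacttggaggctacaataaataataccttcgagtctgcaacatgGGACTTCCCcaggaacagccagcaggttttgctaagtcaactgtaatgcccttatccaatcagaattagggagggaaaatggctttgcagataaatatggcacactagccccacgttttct

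The marked kB match began 90 bases before the start in CXCL5 and 91 bases before it in CXCL8. CXCL10 held 2 kB matches, 176 and 121 bases before the start, and an ISRE match at 221. CXCL9 had its kB match at 125 and its ISRE match at 171. The table held a window for 43 of the 59 genes, some with several starts, and lacked CCL5, CXCL16, CCL17, XCL1 and ACKR3 among those above the minimum. Of the 10 member genes with CXCL symbols on chromosome 4, 9 had a kB match, the exception being CXCL13. So did 8 of the other 33 member genes with a window (24.2%). PF4, PF4V1 and PPBP, chemokine genes under other symbols, were not scanned. The counts by gene take a gene as matching if any of its windows matched. By window, 17 of 56 member windows held the kB letters and 11 the ISRE letters, the chromosome 4 genes included. Across all 35116 windows of this length, 15.0% held the kB letters and 6.88% the ISRE letters. Both CCL28 windows lacked both. Matches are letters only: CXCL1, CXCL2, CXCL3 and CXCL6 also carried the kB letters, and their signal lay below the minimum on both arrays.

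Most of the chemokine system was at background. Both values of 41 of the 59 genes (69.5%) lay below the minimum, against 33.3% of all 17687 named genes. The remaining 18 were above the minimum on at least 1 array. Of all 59 genes, 12 were above it on both arrays, against 61.9% of all 17687 named genes. Another 2 passed it on the Y42C array alone and 4 on the wild-type array alone. Ligands accounted for 12 of the 18 and receptors for 6.

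Between the lines, 2 of these 18 genes differed by 2-fold or more: CXCL5, which was higher in Y42C, and CCL28, which was lower. Over all 11802 genes above the minimum, 7.46% were higher by that much and 9.80% lower, so a count of 1 in each direction was near the background. The median difference of the 18 was 0.27, with 11 higher (45.2% of all genes above the minimum were) and 7 lower, and that of all genes above the minimum was -0.07. For the 12 genes above the minimum on both arrays the median was 0.30, with 9 higher and 3 lower, beside -0.08 for all genes of that kind. At 1.5-fold, 5 of the 18 were higher and 4 lower, where 17.8% and 23.4% of all genes above the minimum passed.

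**Figure D1:**
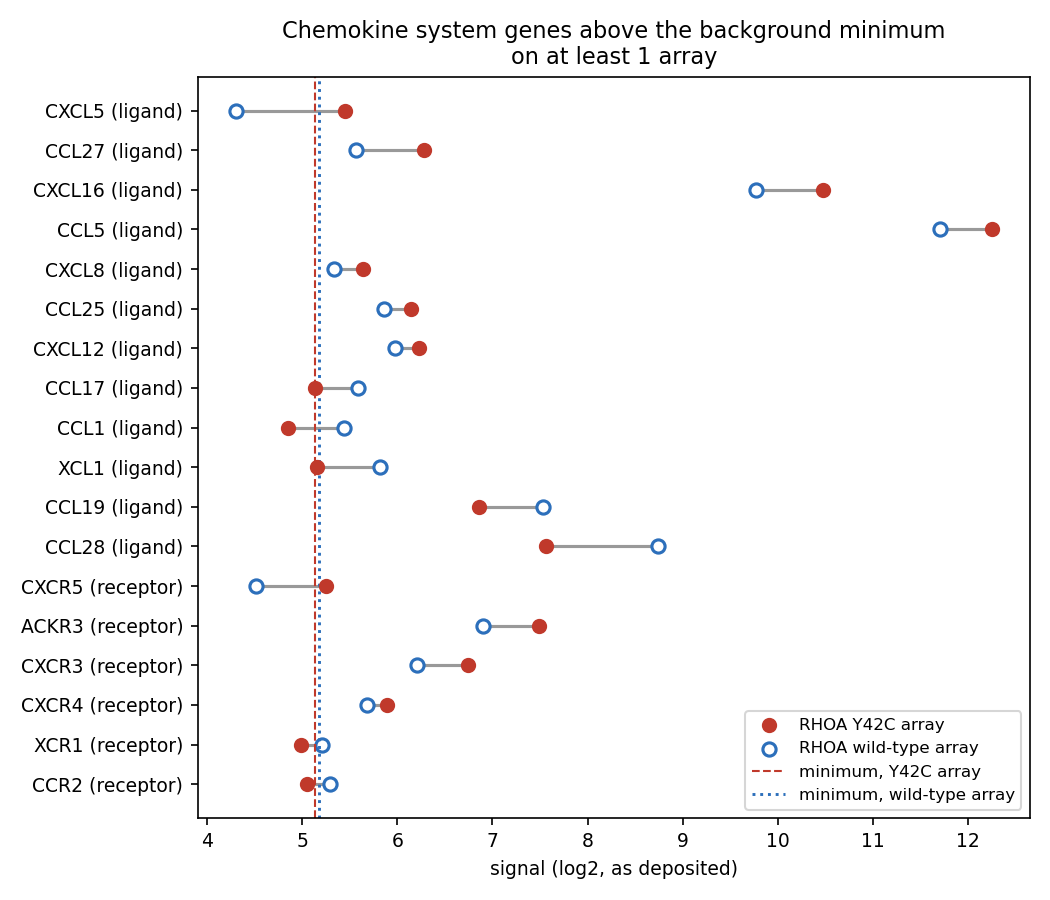
Signal (log2, horizontal axis) of the 18 chemokine system genes above the minimum on at least 1 array, with the Y42C value as a filled point, the wild-type value as an open point and each array's minimum as a vertical line. CXCL5 has its wild-type value left of the minimum, and CCL28 shows the widest gap among genes with both values above it.

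CCL28 (Entrez gene 56477), a mucosal ligand of CCR10 and CCR3 made by epithelial cells, had a signal of 7.56 in the Y42C array, against 8.74 in the wild-type array. Both values were above the minimum, and the Y42C value was 2.27-fold lower, a difference of -1.18. Of all genes above the minimum with a mean level between 7 and 10, 12.0% were lower by 2-fold or more.

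CXCL5 (Entrez gene 6374), an ELR ligand that attracts neutrophils, had 5.45 in the Y42C array and 4.30 in the wild-type array. Its deposited values differed by 1.15. As the wild-type value lay below the minimum, the measured bound was at least 1.21-fold higher, so its place past 2-fold rests on a value at background. CXCL8, the best-known neutrophil attractant, was just above the minimum on both arrays, at 5.64 in Y42C and 5.33 in wild-type cells. The other ELR ligands, CXCL1, CXCL2, CXCL3 and CXCL6, lay below it on both, between 4.22 and 4.93 in Y42C and between 4.02 and 4.63 in wild-type cells. No fold is given for these 4. CXCL1, CXCL2 and CXCL3 are close paralogs that may share probes.

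The ligands of CXCR3 were at background in both lines. CXCL9 read 3.86 in Y42C and 3.55 in wild-type cells. CXCL10 read 4.04 in Y42C and 4.61 in wild-type cells. CXCL11 read 4.20 in Y42C and 4.47 in wild-type cells. No fold is given for these, as neither array showed a value above the minimum, and the same applies to CXCL13, CXCL14 and CXCL17.

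CXCL16 (Entrez gene 58191), a membrane-bound ligand of CXCR6 that also acts as a scavenger receptor, was well above the minimum in both lines. Its signal was 10.47 in Y42C and 9.77 in wild-type cells, a 1.62-fold higher value in Y42C (difference 0.70). CXCL12, the ligand of CXCR4 and ACKR3, read 6.23 in Y42C and 5.98 in wild-type cells, a difference of 0.25. Both genes were higher in Y42C by less than 2-fold.

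CCL5 (Entrez gene 6352), or RANTES, attracts T cells and monocytes through receptors such as CCR1 and CCR3. Its signal was 12.25 in Y42C and 11.70 in wild-type cells, both far above the minimum, and the Y42C value was 1.46-fold higher (difference 0.55). None of the other 10 ligands of the CCR1, CCR2 and CCR3 group measured here reached the minimum on either array. These were CCL2, CCL3, CCL3L3, CCL7, CCL8, CCL11, CCL16, CCL23, CCL24 and CCL26, which spanned 3.47 to 4.55 in Y42C and 3.06 to 4.54 in wild-type cells. CCL2, the main attractant of monocytes, was at 3.87 in Y42C and 3.06 in wild-type cells. CCL3 and CCL3L3 are near-identical and may share probes.

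Ligands of the remaining CC receptors differed in both directions. CCL19, which guides cells through CCR7, read 6.86 in Y42C and 7.53 in wild-type cells, 1.59-fold lower in Y42C. CCL27, a skin ligand of CCR10, read 6.28 in Y42C and 5.57 in wild-type cells, 1.64-fold higher in Y42C. In RefSeq's gene order CCL27, CCL19 and CCL21 lie close together on chromosome 9, with at most 3 other protein-coding genes between neighbours. CCL27 and CCL19 thus differed in opposite directions within this cluster, and CCL21 was at background (3.82 in Y42C and 3.94 in wild-type cells). CCL25, which acts on CCR9 in thymus and gut, read 6.14 in Y42C and 5.86 in wild-type cells.

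CCL17, a ligand of CCR4, read 5.13 in Y42C and 5.59 in wild-type cells, its Y42C value lying just under the minimum. CCL1, the ligand of CCR8, read 4.85 in Y42C and 5.44 in wild-type cells, at least 1.23-fold lower in Y42C. CCL18, CCL20, CCL21 and CCL22 were below the minimum on both arrays, with CCL20, the mucosal ligand of CCR6, at 2.80 in Y42C and 3.14 in wild-type cells. XCL1, a ligand of XCR1, read 5.16 in Y42C and 5.82 in wild-type cells, 1.58-fold lower in Y42C, where its value was only 0.02 over the minimum. Its near-identical partner XCL2 read 4.50 in Y42C and 5.15 in wild-type cells, and the pair may share probes. The membrane-bound CX3CL1 had 4.76 in Y42C and 5.16 in wild-type cells, the second value missing the minimum narrowly.

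Receptor genes showed no difference of 2-fold. ACKR3, an atypical receptor that takes up CXCL12 and CXCL11, was above the minimum on both arrays, at 7.49 in Y42C and 6.90 in wild-type cells, 1.51-fold higher in Y42C. CXCR3 read 6.74 in Y42C and 6.21 in wild-type cells, 1.44-fold higher in Y42C. CXCR4, the receptor of CXCL12, read 5.89 in Y42C and 5.68 in wild-type cells. All 3 were higher in Y42C, by less than 2-fold.

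CXCR5, a receptor of follicular lymphocytes, passed the minimum in Y42C cells alone, at 5.25 in Y42C and 4.51 in wild-type cells, so its measured bound was at least 1.06-fold higher. CCR2, the receptor of CCL2, read 5.05 in Y42C and 5.29 in wild-type cells, and XCR1 read 4.99 in Y42C and 5.21 in wild-type cells. Both passed the minimum in wild-type cells alone and by a narrow margin. The other 7 CC receptors measured (CCR1, CCR4, CCR6, CCR7, CCR8, CCR9 and CCR10), as well as CXCR1, CXCR2, CXCR6, CX3CR1, ACKR1, ACKR2, ACKR4 and ACKR5, were at background on both arrays. Their signal lay between 2.91 and 5.0 in Y42C and between 2.86 and 5.11 in wild-type cells.

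**Figure D2:**
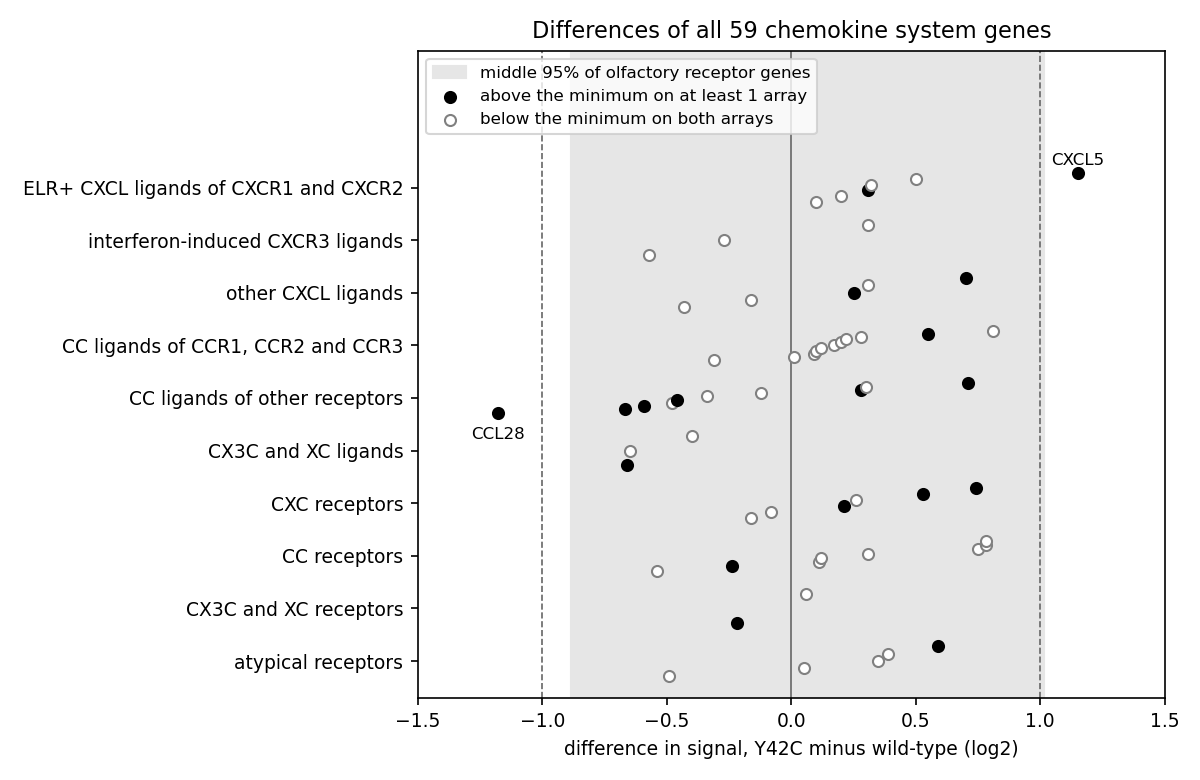
Difference in signal (Y42C minus wild-type, log2, horizontal axis) for each of the 59 genes by family, filled where at least 1 array was above the minimum and open where both were below it; dashed lines mark 2-fold and the grey band the middle 95% of olfactory receptor genes. CCL28 and CXCL5 are the 2 points outside the band.

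Differences of background genes give a scale for the values above. The middle 95% of olfactory receptor genes spanned -0.89 to 1.02, with an SD of 0.44, and 4.30% of them were at least 2-fold apart. All 41 members at background fell inside that range, 27 of them higher (53.1% of all genes below the minimum were) and 14 lower in Y42C, with a median of 0.11 beside 0.04 for all genes below the minimum. Of the 18 members above the minimum, 16 fell inside it as well, CCL28 and CXCL5 being outside. This range comes from dim probe sets, and the share of all genes inside it was not counted. At least 9.80% of all genes above the minimum lay outside it, being lower by 2-fold or more. Lying outside it therefore does not set CCL28 and CXCL5 apart from other genes. Over the genes above the minimum, the SD of the difference was 0.73 at mean levels below 7, where 13 of the 18 members lay, 0.83 at 7 to 10 and 0.73 over 10.

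**Figure D3:**
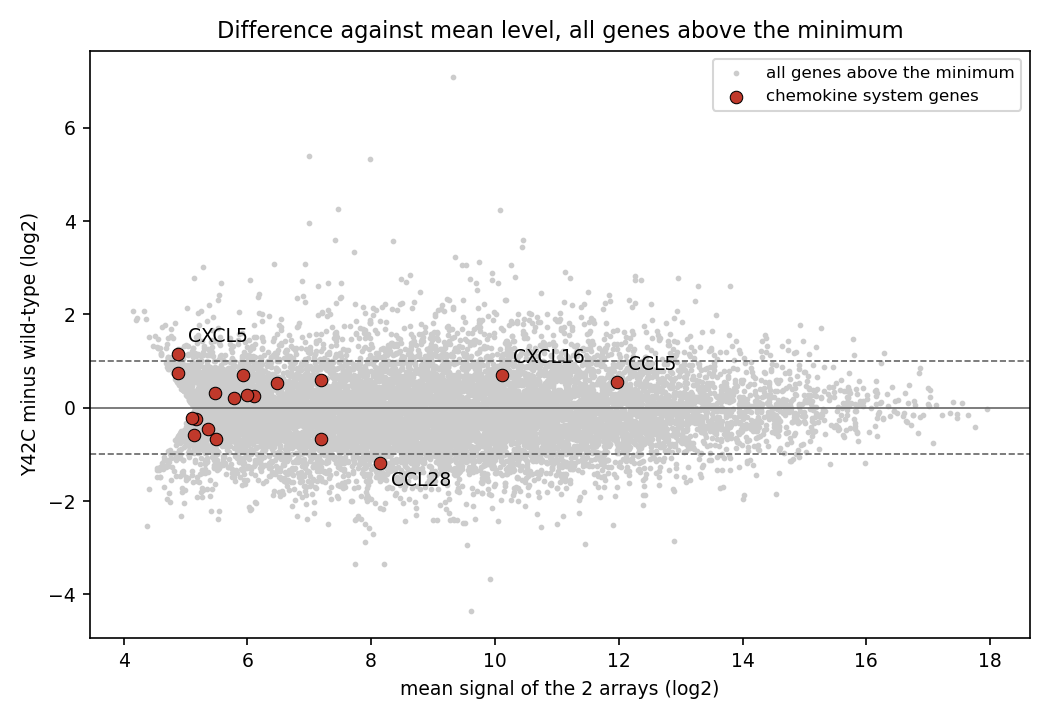
Difference (Y42C minus wild-type, log2, vertical axis) against the mean signal of the 2 arrays (log2, horizontal axis) for the 11802 genes above the minimum (grey) and the 18 chemokine system genes among them (red); dashed lines mark 2-fold. Of the 18, 13 lie below a mean level of 7, and CXCL16 and CCL5 are the 2 over 10.

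Ligands were then set beside their receptors, in a list of 37 known pairs written with these values known. Both genes were measured in 35 pairs, with the ligand above the minimum on both arrays in 13 and the receptor in 6. Both were above the minimum on both arrays in 2 pairs, CXCL12 with CXCR4 and CXCL12 with ACKR3. In 10 pairs the ligand was above the minimum on both arrays and the receptor below it on both. Of all 21 receptors, 15 were at background on both arrays, as were 26 of the 38 ligands. Several genes recur among the pairs, so these counts give no result about pairing. Among the 10 pairs, CXCL16 stood beside CXCR6 at 3.65 in Y42C and 3.39 in wild-type cells. CCL28 and CCL27 stood beside CCR10 at 3.92 in Y42C and 3.14 in wild-type cells. CCL5 stood beside CCR1 at 3.66 in Y42C and 3.55 in wild-type cells, CCR3 not being analysed here. CCL19 stood beside CCR7 at 4.44 in Y42C and 3.66 in wild-type cells. In 4 pairs the receptor was above the minimum and the ligand below it, namely CXCR3 with its 3 ligands and ACKR3 with CXCL11, and in 11 pairs both genes were at background.

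Markers of the line and of other cell types were read the same way. Epithelial keratins were high in both lines (KRT8 at 17.94 in Y42C and 17.96 in wild-type cells), EPCAM was at 13.53 in Y42C and 13.30 in wild-type cells, and CDH1 was at background at 3.86 in Y42C and 3.92 in wild-type cells. Of 11 leukocyte markers measured, 4 were above the minimum on both arrays: CD79A, CD14, CSF1R and NKG7. PTPRC and CD3E passed it in Y42C alone, and CD3D, MS4A1, LYZ, ITGAM and FCGR3A stayed below it. CD14 was at 5.67 in Y42C and 7.45 in wild-type cells, 3.43-fold lower, while the other 5 markers above the minimum on at least 1 array had positive differences (median of all 6, 0.46). The summed linear signal of the leukocyte list was 513 in Y42C and 534 in wild-type cells, and 463 in Y42C and 359.5 in wild-type cells without CD14. Whether chemokine system genes near the minimum are transcribed in these cells was not tested. Of 5 endothelial markers, 3 passed the minimum (PECAM1, VWF and TEK). The summed signal of all 5, with CDH5 and KDR at background, was 305 in Y42C and 240 in wild-type cells. Of 7 fibroblast markers, LUM, COL1A1 and COL1A2 passed it, with LUM at 14.37 in Y42C and 12.09 in wild-type cells, COL1A2 at 8.72 in Y42C and 7.68 in wild-type cells, and COL1A1 at 5.84 in Y42C and 6.05 in wild-type cells. LUM and COL1A2 were 4.86-fold and 2.06-fold higher, with DCN, PDGFRA, PDGFRB and THY1 at background. The summed signal of this list was 21748 in Y42C and 4710 in wild-type cells, and 574 in Y42C and 350.5 in wild-type cells without LUM, and its part in the chemokine values was not tested. RHOA itself read 16.30 in Y42C and 16.47 in wild-type cells, and its probe set is not known to separate the alleles.

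Genes that act around the chemokines were read from 7 lists. Of 13 NF-kB genes above the minimum, 2 were higher by 2-fold or more and 1 was lower (median 0.25), beside the shares of 7.46% and 9.80% and the median of -0.07 over all genes above the minimum. TNFAIP3, which shuts NF-kB signalling off, was at 10.17 in Y42C and 8.71 in wild-type cells, 2.75-fold higher. RELB, the subunit of the alternative pathway, was at 8.66 in Y42C and 7.49 in wild-type cells, 2.25-fold higher. IKBKG, the scaffold of the IKK complex, was at 5.11 in Y42C and 6.14 in wild-type cells, at least 2.01-fold lower, and RELA differed by -0.95.

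Cytokines and receptors that induce chemokines included 9 genes above the minimum, of which 0 were higher and 1 lower by 2-fold (median 0.24). The lower one was IL6, at 4.73 in Y42C and 5.89 in wild-type cells, at least 1.69-fold lower. Of all genes above the minimum, 7.46% were higher and 9.80% lower by 2-fold, with a median of -0.07. The interleukin-1 receptor subunits differed in opposite directions, IL1RAP by 0.82 and IL1R1 by -0.97. LIF read 5.98 in Y42C and 5.12 in wild-type cells, at least 1.75-fold higher since the wild-type value lay below the minimum. The interferon-gamma list held 5 genes above the minimum, 0 of them higher and 1 lower by 2-fold (median -0.13). IRF1, which switches on interferon-inducible genes, was at 6.07 in Y42C and 8.09 in wild-type cells, 4.06-fold lower. JAK1 lay at the upper end (0.41). CXCL9, CXCL10 and CXCL11 were at background in both lines, so no difference in them can be read beside that of IRF1.

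Factors that destroy or protect chemokine mRNA numbered 7 above the minimum, with 1 higher and 1 lower by 2-fold (median -0.13), both of the ZFP36 family, whose proteins bind AU-rich elements and speed up decay. The shares over all genes above the minimum were 7.46% higher and 9.80% lower. ZFP36L1 was at 13.84 in Y42C and 12.37 in wild-type cells, 2.77-fold higher. ZFP36, or tristetraprolin, was at 8.27 in Y42C and 9.66 in wild-type cells, 2.62-fold lower. The pair thus differed in opposite directions.

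Below the receptors, 28 G protein, arrestin and kinase genes passed the minimum, 1 of them higher and 3 lower by 2-fold (median -0.17). Over all genes above the minimum the shares were 7.46% higher and 9.80% lower, so these counts were near the background. GRK2, a kinase that desensitises receptors, was at 8.62 in Y42C and 7.53 in wild-type cells, 2.13-fold higher. PLCB2, a phospholipase of leukocytes, was at 6.63 in Y42C and 8.29 in wild-type cells, 3.16-fold lower. PTK2B, a calcium-responsive tyrosine kinase, was at 8.79 in Y42C and 10.03 in wild-type cells, 2.36-fold lower. PIK3CG, a lipid kinase driven by G proteins, was at 6.16 in Y42C and 7.16 in wild-type cells, a difference of -1.0 that sits on the threshold.

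For the last 2 lists, too, the background was 7.46% higher and 9.80% lower by 2-fold (median -0.07). Genes for shedding, cleavage and surface display of chemokines counted 15 above the minimum, 2 of them higher and 0 lower by 2-fold (median 0.36). The 2 were MMP1 (12.16 in Y42C and 8.72 in wild-type cells) and MMP9 (10.97 in Y42C and 7.74 in wild-type cells), proteases that cut matrix and also several chemokines, 10.9-fold and 9.38-fold higher. ADAM10, the sheddase of CXCL16 and CX3CL1, differed by -0.27, and ADAM17 was at the lower end with -0.75. DPP4, which trims and mostly inactivates chemokines, differed by 0.78. In a list of chemokine, receptor and related genes under other symbols, 5 passed the minimum and 0 of them differed by 2-fold (median -0.50). Of the 5, 2 were higher and 3 lower, with CCRL2 at -0.50 and CKLF at -0.52. MIF, which binds CD74, CXCR2 and CXCR4, read 11.27 in Y42C and 11.89 in wild-type cells. RARRES2, the chemoattractant chemerin, read 8.05 in Y42C and 7.91 in wild-type cells, and PF4V1, at 5.17 in Y42C and 4.97 in wild-type cells, had a wild-type value below the minimum. PF4 and PPBP, the platelet chemokines, and CD74 were at background on both arrays.

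**Figure D4:**
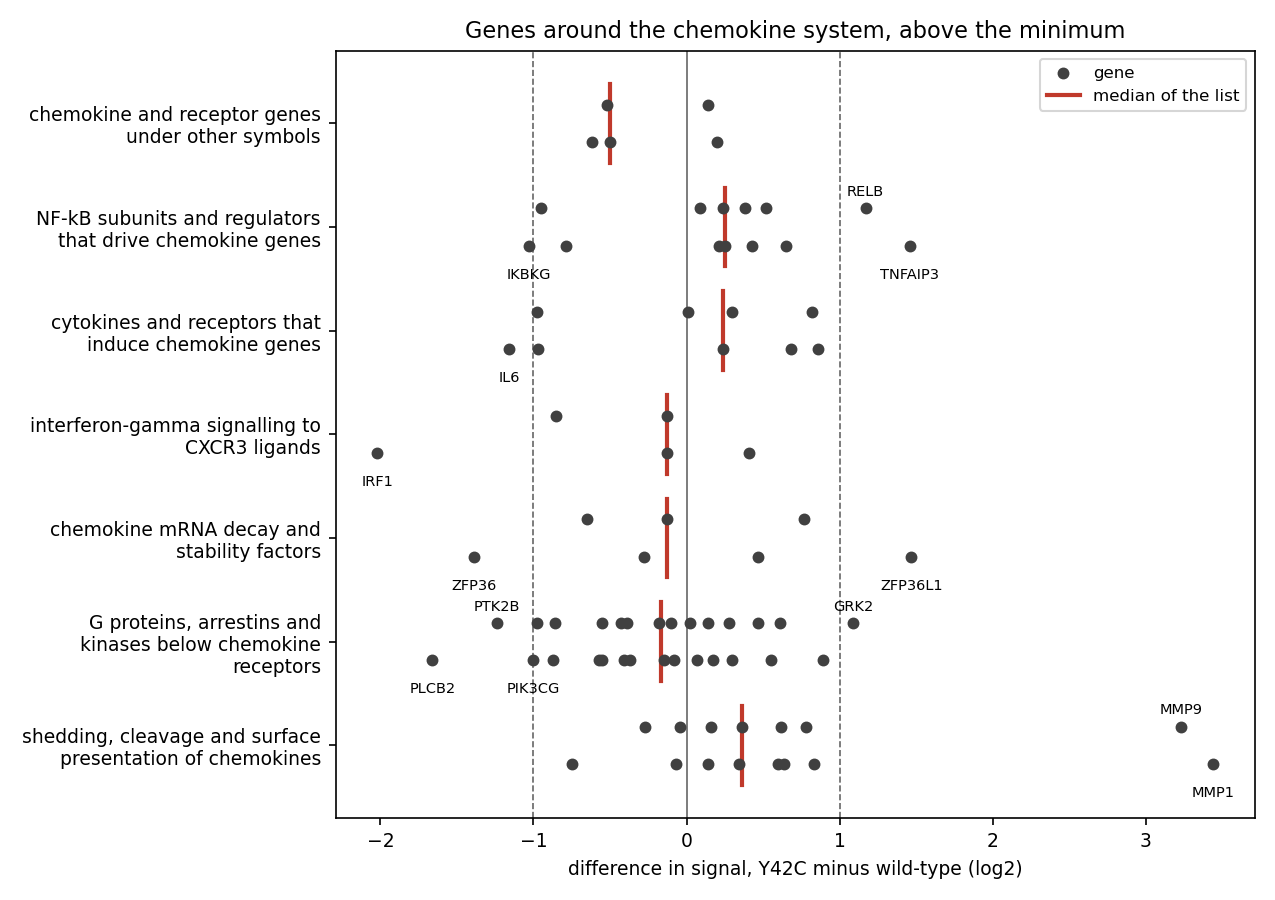
Difference in signal (Y42C minus wild-type, log2, horizontal axis) of each gene above the minimum in 7 lists around the chemokine system, with the list median as a red bar, dashed lines at 2-fold and names for genes at or past it. MMP1 and MMP9 lie farthest to the right and IRF1 farthest to the left.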

How the data were processed

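Total RNA from 2 MKN1 lines was measured on Affymetrix arrays, 1 per line. The deposited table gives a value with 2 decimals for each probe set, between 2.23 and 18.16. The values were taken as log2 signal from that range, as the log base of the deposited values is not stated. Affymetrix Expression Console is the authors' software per the submitters' processing notes, and no version, summary method or normalization is given in the sources used here. Medians of the columns were 6.36 for Y42C and 6.42 for wild-type, and no further normalization was applied. Depth does not apply to arrays, and their number limits the precision.

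Platform annotation named 17709 of 21448 probe sets with 1 symbol. By Entrez identifier, all 59 members were found in the gene table under the same symbol. No member gene had several probe sets; for other genes they were averaged. The minimum was the 95th percentile of 349 olfactory receptor genes on each array. Genes at or above it on at least 1 array were counted past 2-fold. Where 1 value lay below its minimum, the fold is a bound against that minimum. No test was possible with 1 array per line. The rule named every member above the minimum and, from each of 7 lists, the genes past 2-fold and at each end; further genes were named after their values were seen. Members and lists were chosen with earlier results of these data known. Motif letters were set after a looser kB form was found in 54.4% of windows. Counting was tested on simulated data with less spread than these arrays and changes planted only in brighter genes. That test does not cover members near the minimum. Alternatives covered the minimum, normalization, an added constant of 16 on the linear scale, the filter and the threshold. Software was matplotlib 3.10.9, statsmodels 0.14.6, NumPy 2.4.6, pandas 2.3.3 and Python 3.11.15.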

Additional observations from a re-analysis of the deposited data

How the results depend on the processing

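The count of members at background was 41, and also 41 with the brightest probe set, no member having several. It was 32 with a minimum at the 90th percentile, 51 at the 99th and 53 at the array median. The members above the minimum, 18 as reported, thus numbered 27, 8 and 6. The 8 left at the 99th percentile were ACKR3, CCL5, CCL19, CCL25, CCL28, CXCL12, CXCL16 and CXCR3. CCL28 was the 1 gene at least 2-fold lower under every alternative except the thresholds, which gave 4 genes at 1.5-fold and 0 at 3-fold. It passed every minimum tried on at least 1 array, so the minimum, probe set and filter settings could not change its difference of -1.18. With centring it was -1.12, with quantile normalization -1.09, with the trend removed -1.06 and with the added constant -1.12. CXCL5 was less firm: the count of genes at least 2-fold higher was 0 with a minimum at the 99th percentile or at the array median, with a constant of 16 added (difference 0.74), with low values set to the minimum, and at 3-fold, and 5 at 1.5-fold. The members' median, 0.27 as reported, was 0.10 with a minimum at the 90th percentile, 0.41 at the 99th, 0.54 at the array median and 0.12 with no filter, since each keeps a different number of genes. An added constant cannot turn a sign. Centring moved every difference by 0.06, less than the smallest of the 18 members above the minimum (0.21, CXCR4), so it could turn none. Quantile normalization and the lowess trend turned none either, and none of these settings stands in for a second array. Among the surrounding lists, the NF-kB list had 0 lower genes after centring or with the added constant, the cytokine list 0 with the added constant, and the G protein list 2 under all 4 of these settings, with 2 higher after the trend was removed. No paired analysis was possible because each line has 1 array. Of the 18 members above the minimum, 9 lay less than 1 log2 unit over it on the array where they were brighter.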
